A study of Mus musculus with 2 samples.

Results

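The NADPH oxidase of phagocytes was described here through 6 genes, Cybb, Cyba, Ncf1, Ncf4, Rac1 and Rac2, in LPS-stimulated mouse macrophages with and without PAC1. The genes were chosen by name, and all probe sets annotated to them were taken, which gave 7 probe sets for 6 of the 8220 genes measured by the array. Cyba had 2 probe sets and each of the other genes had 1. A probe set is a group of short probes on an Affymetrix array that together report 1 transcript.

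The series compared 1 array of Pac1-/- cells with 1 array of Pac1+/+ (wild-type) cells from littermates matched for age. PAC1 is the phosphatase encoded by Dusp2, which acts on MAP kinases in the nucleus. In both groups, peritoneal macrophages were elicited by injection of 2 ml of 3% thioglycollate, a sterile irritant, collected after 4 days, purified by adherence for 2 hours and stimulated for 6 hours with LPS at 100 ng/ml, a time chosen for inflammatory gene expression. LPS is the bacterial cell-wall component that stimulates Toll-like receptor 4. The sources used here do not give the strain, the age, the allele, how many mice each array represents or any pooling of their RNA. Unstimulated cells were not analysed here, so the values are levels after LPS and not inductions.

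The oxidase transfers electrons from NADPH in the cytosol to oxygen on the other side of the membrane and so makes superoxide, the first product of the oxidative burst. In resting cells its parts are kept separate. The catalytic subunit gp91phox (Cybb) and its partner p22phox (Cyba) form flavocytochrome b558 in the membrane, while the organising subunit p47phox (Ncf1) and the subunit p40phox (Ncf4) wait in the cytosol. On activation p47phox is phosphorylated, the cytosolic subunits move to the membrane, and a Rac GTPase loaded with GTP completes the enzyme. Loss of a subunit causes chronic granulomatous disease, in which phagocytes kill microbes poorly.

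Promoter sequence was looked up because the subunit genes are known targets of PU.1, a factor of the ETS family, and of interferon-regulatory factors, whose own transcripts are reported further on. Of the 6 genes, 3 (Cybb, Cyba and Ncf1) matched a RefSeq promoter window on GRCm38.p6, which runs from 250 bases before to 50 after the start of transcription. The windows were searched on both strands for GAGGAA, which PU.1 can bind, and for a repeat that interferon-regulatory factors can bind, GAAA, any 2 bases and GAAA again. The second motif was present in 2 of the 3 windows and in 3.44% of all 32851 windows, and the first was present in 1 of 3 and in 28.3% of all. The 175 bases before the start are shown 5′ to 3′ on the gene's strand for the 2 genes with that repeat, with its matches on either strand in capitals. The windows lie at chrX:9469325-9469499 (minus strand) for Cybb and at chr5:134229626-134229800 (minus strand) for Ncf1.
Cybb: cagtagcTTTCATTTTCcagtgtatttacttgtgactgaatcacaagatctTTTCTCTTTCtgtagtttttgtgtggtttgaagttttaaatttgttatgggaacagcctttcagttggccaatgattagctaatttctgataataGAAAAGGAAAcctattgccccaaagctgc
Ncf1: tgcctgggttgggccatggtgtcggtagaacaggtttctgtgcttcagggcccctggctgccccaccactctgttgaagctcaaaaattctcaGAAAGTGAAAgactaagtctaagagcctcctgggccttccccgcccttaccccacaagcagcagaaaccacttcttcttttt
In Cybb the matches begin 168, 124 and 29 bases before the start, and its GAGGAA match lies after the start, outside the stretch shown. In Ncf1 the single match begins 82 bases before the start. No match overlapped another. A match is a run of letters and not a shown binding site.

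The values were MAS5 signals, which are intensities in arbitrary units on a linear scale. Each array held 12654 probe sets, with medians of 38.0 (knockout) and 35.0 (wild type) and equal trimmed means. The median of all signals, 36.4, served as a floor below which values were not ordered. The Dusp2 signal was 76.8 in the knockout against 333.0 in the wild type (log2 ratio −2.12), but the sources used here do not say whether its probes lie in the deleted part. The labelled cell type was checked on 11 macrophage markers, all of which were above the floor on both arrays, including Itgam (356 in the knockout, 301 in the wild type), which encodes the Mac-1 chain used by the authors to judge purity at 92 to 95%, and Adgre1 (364 and 350), the F4/80 antigen. Each genotype had a single array, so differences were not checked in replicates and the genotypes could not be tested. In such bulk samples, fewer cells of a type and less RNA per cell cannot be told apart. Probe sets differ in how brightly they report a transcript, so ratios were taken only within a probe set. Summed signals of marker lists, given further on, are decided by their brightest probe sets.

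The oxidase genes were expressed at nearly the same level with and without PAC1. All 7 probe sets were above the floor on both arrays, and the widest difference, that of Cybb, was 1.23-fold. None was 2-fold apart (0 of 7), where 2.31% of the 6838 probe sets with a signal above the floor were. None was 1.5-fold apart either (0 of 7), against a background of 12.5%. Among bright probe sets, those with a mean signal over 10 times the floor, these shares were 0.453% and 3.43%, and 6 of the 7 oxidase probe sets were of that kind. At these shares the counts of 0 among 7 lie near the background.

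**Figure D1:**
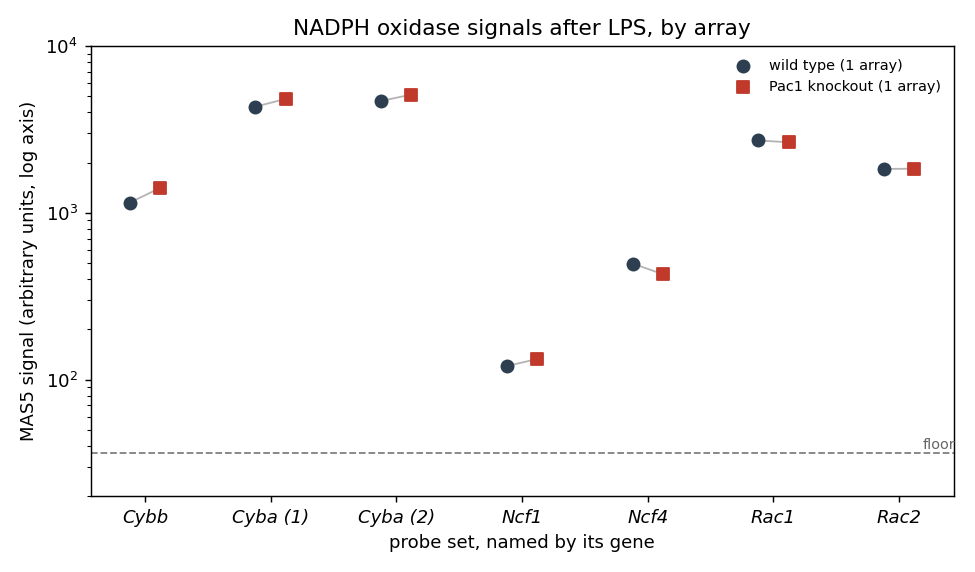
MAS5 signal (arbitrary units, log axis) of the 7 probe sets of the oxidase genes on the wild-type array (circles) and the Pac1 knockout array (squares), with a line joining the points of a probe set and a dashed line at the floor of 36.4; each point is 1 array, so there are no error bars. The paired points sit close together, and the widest gap is that of Cybb, at 1409 against 1149.

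The membrane subunits had the higher signals in the knockout. Cybb, the catalytic subunit and the gene most often mutated in chronic granulomatous disease, was at 1409 in the knockout against 1149 in the wild type, a log2 ratio of 0.29. Among the 1545 bright probe sets, 20.1% were at least as far apart, in either direction, and 9.19% were at least as high in the knockout. Cyba, which stabilises gp91phox and offers the docking site for p47phox, was at 4815 against 4325 on its first probe set (log2 ratio 0.15). On the second it was at 5114 against 4679 (log2 ratio 0.13), and the suffix of that probe set marks possible cross-hybridisation. About as large a difference as on these probe sets was common, since 48.3% and 55.3% of bright probe sets were at least as far apart.

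Cyba offered the only repeat measurement within the oxidase. Its log2 ratios differed by 0.03 between the probe sets, both higher in the knockout. For comparison, over 61 genes with 2 bright probe sets, the ratios of the same gene differed by a median of 0.18, with a 95th percentile of 0.60. Over all 444 genes with 2 probe sets measured above the floor in both genotypes the median difference was 0.30. The log2 ratio of Cybb, 0.29, and the size of that of Ncf4, −0.21, lie above the first of these medians and below the last. The other members' ratios were smaller in size than these medians. This spread is technical and leaves out the differences between mice.

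The cytosolic subunits went in opposite directions. Ncf1, the organiser whose phosphorylation starts assembly, was at 133 in the knockout against 121 in the wild type (log2 ratio 0.14). It was the dimmest member, 3.48 times the floor in mean signal, and 66.7% of all probe sets with a signal above the floor were at least as far apart. Ncf4, whose protein binds a phosphoinositide of phagosome membranes, was at 429 against 496 (log2 ratio −0.21), the lowest ratio of the members. Of the bright probe sets, 35.0% were at least as far apart and 18.4% were at least as low. The Ncf4 signal in the knockout was 86.5% of that in the wild type.

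The Rac GTPases were the members closest to equal as the arrays were scaled here. Rac2, the form restricted largely to blood cells, was at 1838 in the knockout against 1831 in the wild type (log2 ratio 0.01). Rac1, the form found in most cell types, was at 2646 against 2713 (log2 ratio −0.04). Of the bright probe sets, 97.5% were at least as far apart as Rac2 and 86.7% as Rac1. With arrays scaled to equal medians, Rac1 (−0.15) and Rac2 (−0.11) were further from equal than Cyba (0.04 and 0.01) and Ncf1 (0.02). Rac1 and Rac2 are close paralogs, and how far their probes tell them apart was not examined here. The probe set of Rac3, the Rac gene of mainly nervous tissue, was below the floor on both arrays.

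**Figure D2:**
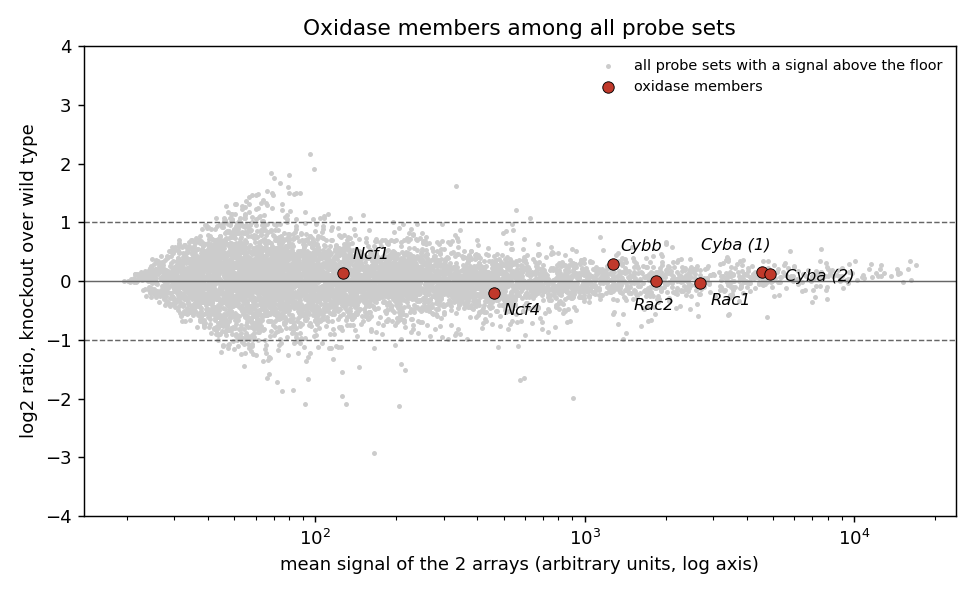
Log2 ratio of knockout over wild type against the mean signal of both arrays (arbitrary units, log axis) for the 6838 probe sets with a signal above the floor (grey) and the 7 oxidase probe sets (red); dashed lines mark 2-fold. All red points lie well inside the dashed lines, between −0.21 (Ncf4) and 0.29 (Cybb), and the spread of the grey points narrows as the signal grows.

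Ordered by ratio, the members ran from Cybb (log2 ratio 0.29) through Cyba (0.15 and 0.13), Ncf1 (0.14), Rac2 (0.01) and Rac1 (−0.04) to Ncf4 (−0.21). With 1 array each, no spread is available to separate neighbours in this order. With each gene at its brightest probe set, 4 of 6 were above 0 (Cybb, Cyba, Ncf1 and Rac2), where 52.2% of the 5119 genes with a signal above the floor were. Their median log2 ratio was 0.07 against 0.02 for all those genes.

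The sizes of the ratios, and for Rac2 the sign, depended on how the arrays were scaled to each other. Scaling to equal medians in place of equal trimmed means moved the median log2 ratio of all genes from 0.02 to −0.10, and the median of the 6 members moved with it from 0.07 to −0.05. Relative to all genes the members stayed 0.05 higher under both scalings. Cybb, Ncf1 and both probe sets of Cyba kept ratios above 0 under 8 of 8 processing settings, although the lowest ratio of Cyba was 0.01 and that of Ncf1 was 0.02. Cybb ranged from 0.18 to 0.29. Ncf4, from −0.33 to −0.18, and Rac1, from −0.15 to −0.04, were below 0 under all 8. Rac2 was above 0 as reported (0.01) and with quantile normalization (0.03), and below 0 with equal medians (−0.11) or loess (−0.01). The deposited values and the other choices of floor could hardly move ratios of signals so far above the floor. Only the dim Ncf1 moved, to 0.04 with a floor at the 75th percentile. The 8 settings are therefore not 8 separate checks.

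**Figure D3:**
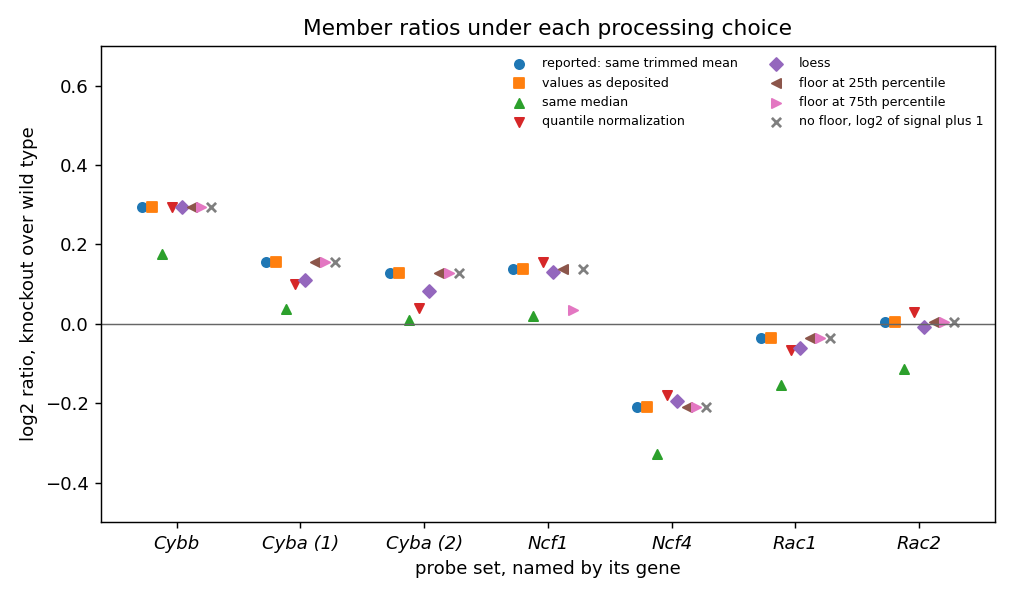
Log2 ratio of knockout over wild type for each oxidase probe set under the 8 processing settings run at the level of probe sets, with a symbol for each setting and a line at 0. Scaling to equal medians (green triangles) gives the lowest point in each column, from 0.18 for Cybb to −0.33 for Ncf4, and no point comes near a log2 ratio of 1, which is 2-fold.

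Around the enzyme, the genes that control Rac and the kinases that prime p47phox were also close to equal on the arrays. The Rac list held mostly regulators, such as exchange factors that load Rac with GTP and the inhibitor that holds it in the cytosol. It also held Rap1a, another small GTPase. Of its 9 measured genes, 7 had a signal above the floor. None of the 7 was 2-fold apart (0 of 7, against 2.32% of all genes), and their median log2 ratio was −0.02. The highest was Dock2, a Rac exchange factor of blood cells, at 110 in the knockout against 80.1 in the wild type (log2 ratio 0.45). The lowest was Rap1a, a small GTPase that co-purifies with the flavocytochrome, at 117 against 140 (−0.26). Its other probe set, at 68.5 against 64.1, had a ratio of 0.10.

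Among 13 measured kinases and lipases that act on the oxidase, 9 had a signal above the floor, and their median log2 ratio was 0.02. Of the 9, 0 were 2-fold apart, near the background of 2.32% of all genes. Plcg2, a phospholipase that makes the activator of protein kinase C, was highest at 81.5 against 58.5 (0.48). Pak2, a kinase bound by active Rac, was lowest at 1199 against 1342 (−0.16). Prkcd, a protein kinase C that phosphorylates p47phox, was at 1906 against 2041 (−0.10) on its brighter probe set, while its dim second one, at 57.1 against 41.7, had a ratio of 0.45.

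Receptors that act on the burst, a list that shares Fcgr1 and Itgam with the macrophage markers, were mostly higher in the knockout. Most of them trigger it, but Fcgr2b, at 2125 against 1765 (0.27), encodes an inhibitory Fc receptor. Of 10 measured, 9 had ratios above 0 against 52.2% of all genes, and 0 were 2-fold apart against 2.32%. The median log2 ratio was 0.25, or 0.14 with arrays scaled to equal medians. Fcer1g, the signalling chain of Fc receptors, had the highest ratio of those above the floor on both arrays, at 251 in the knockout against 165 in the wild type (0.60). The lowest of these was the formyl peptide receptor gene Fpr2 at 236 against 233 (0.02). Ltb4r1, a leukotriene B4 receptor, went the other way and had only a bound, at least 1.90-fold lower, since its knockout signal was below the floor; with a floor at the 25th percentile, or none, it was 2-fold lower.

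Enzymes around the supply of NADPH, the electron donor of the oxidase, included 2 genes close to 2-fold higher in the knockout. Of 8 measured, 5 had a signal above the floor and 4 of these were above 0, with a median log2 ratio of 0.19. Of all genes, 52.2% were above 0. Only Pgd of the 5 makes NADPH itself, so these counts mostly describe other enzymes of the pentose phosphate pathway. Pgd, the second NADPH-making enzyme of the pentose phosphate pathway, was at 712 in the knockout against 362 in the wild type (log2 ratio 0.98). Its other probe set, marked for possible cross-hybridisation and dim, was at 71.9 against 74.4 (−0.05), and the mean over both was 0.46. Pgls, the enzyme between the NADPH-making steps and named after its value was seen, was at 281 against 143 (0.97). Rpia, of the non-oxidative branch, was lowest at 230.5 against 312 (−0.44). None of the 5 was 2-fold apart (0 of 5, against 2.32% of all genes), and 2 were 1.5-fold apart, where 12.1% of all genes were. With quantile normalization Pgd was 2-fold higher. The first enzyme of the pathway was represented only by G6pd2, the retrogene, which was below the floor on both arrays. Me1 and Idh1, which also make NADPH, were below it too. With a floor at the 25th percentile, G6pd2 and Me1 were 2-fold lower in the knockout, where 11.5% of all genes were 2-fold apart.

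Enzymes that remove oxidants had 10 of 15 members above 0, against 52.2% of all genes, and a median log2 ratio of 0.10, which became −0.02 with equal medians. Catalase (Cat), which breaks down hydrogen peroxide, was the 1 gene of 15 that was 2-fold apart, against 2.32% of all genes, higher by at least 2.12-fold, from 77.0 in the knockout and a signal under the floor in the wild type. Its other probe set was at 63.1 against 42.9 (log2 ratio 0.56). Prdx3, the mitochondrial peroxiredoxin, was at 397 against 246 (0.69), and Gpx4, which reduces lipid peroxides, was at 177.5 against 234 (−0.40). Of other oxidant-making enzymes, Nos2, the inducible nitric oxide synthase, was at 172 against 154 (0.16), and Xdh, xanthine oxidoreductase, at 334 against 366 (−0.13).

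Among 11 measured transcription factors known to act on oxidase genes, 8 had a signal above the floor, with a median log2 ratio of −0.06. Of the 8, 2 were above 0 against 52.2% of all genes, and 0 were 2-fold apart against 2.32%. Irf8, an interferon-regulatory factor that activates Cybb in myeloid cells, was highest at 818 in the knockout against 528 in the wild type (0.63), and stayed between 0.51 and 0.66 over the alternatives. Irf1, of the same family, was at 1427 against 1534 (−0.10). Spi1, which encodes PU.1, was at 895 against 913 (−0.03). The lowest was the coactivator gene Crebbp at 96.0 against 131 (−0.45). Cybb and Ncf1, the members with the printed interferon-regulatory matches, had ratios of 0.29 and 0.14. Cyba, whose window held neither motif, had ratios of 0.15 and 0.13. The Irf8 ratio was 0.63, and any link between Irf8 and these genes was not tested.

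**Figure D4:**
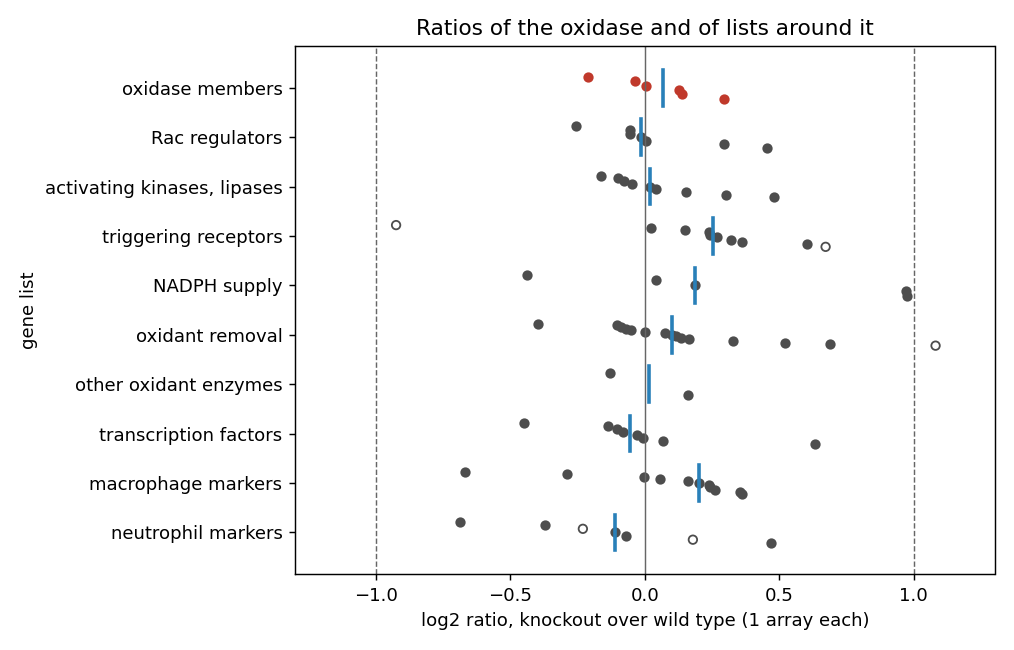
Log2 ratio of knockout over wild type (1 array each) for the oxidase members (red) and for the genes of 9 lists around them (grey), each gene at its brightest probe set; open points have 1 signal below the floor and are bounds, blue bars are list medians and dashed lines mark 2-fold. The oxidase members lie between −0.21 and 0.29, the receptors have the highest median (0.25), and the open point beyond the right dashed line is Cat.

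Macrophage markers went both ways, with more of them above 0 than below. Of the 11, 8 had ratios above 0 (52.2% of all genes did) and 3 were below 0 (Msr1, Mrc1 and Mpeg1). None was 2-fold apart (0 of 11, against 2.32% of all genes). The median log2 ratio was 0.20 (0.08 with equal medians), and the summed signal was 50492 in the knockout against 45564 in the wild type. Fcgr1, a high-affinity Fc receptor, was highest at 3771 against 2939 (0.36), and Msr1, a scavenger receptor, was lowest at 1366 against 2171 (−0.67). The part of these markers in the Cybb and Cyba ratios was not tested. Neutrophils also carry much oxidase. Of the 12 neutrophil markers, 5 (Ly6g, Mpo, Ngp, Ltf and Cxcr2) were below the floor on both arrays. Of the other 7, 2 were above 0 against 52.2% of all genes. The summed signal of the neutrophil markers was 968 in the knockout against 1104 in the wild type. Their extremes were Camp, at 85.7 against 61.9 (0.47), and Mmp9, at 51.3 against 82.6 (−0.69).

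Other cell types of the peritoneum gave mostly dim signals. For comparison, of all genes with a signal above the floor, 52.2% were above 0 and 2.32% were 2-fold apart. Of 7 measured B cell markers, cells that also carry the oxidase, 1 of the 6 with a signal above the floor was above 0, and that was Cd79a, at least 2.75-fold higher. The summed B cell signal was 463 against 543, and Ighm was 2-fold lower only with equal medians. Of T and NK cell markers only Cd4 had a signal above the floor, at least 2.05-fold lower, while 4 were below it. Eosinophil markers had 1 of 4 with such a signal, Prg2 at least 2.75-fold higher. Of 6 mast cell markers, 3 had a signal above the floor and all 3 were above 0. The summed signals of all 6 were 476 against 339. Tpsb2, a mast cell tryptase, was highest at 192 against 116 (0.73; 0.71 on its other probe set), and Cma1, a chymase, lowest at 206 against 188 (0.13). Of 3 dendritic cell markers with a signal above the floor, 1 was above 0, and their median log2 ratio was −0.34. That median was the ratio of Flt3 on its brighter probe set, and its dimmer probe set had a ratio of 0.09. Both probe sets carry a suffix for cross-hybridisation. The median of the list was −0.12 as the mean over probe sets. Without probe sets of such suffixes, which left 2 markers, it was −0.18. Batf3 was lowest at 83.9 against 110 (−0.39). Itgax, at 844 against 826 (0.03), held most of the summed signal of the list, 1088 against 1118. That sum also counts the measured dendritic cell markers below the floor. Of 7 mesothelial and stromal markers with a signal above the floor, 2 were above 0 (Dcn, 0.37, and Col1a2, 0.09) and 5 were below. The summed signal of this list was 1327 against 1684. Acta2 was 2-fold lower at 52.2 against 133 (−1.35), a ratio that ran from −1.47 to −0.04 over the processing settings. The part of these cells in the oxidase ratios was not tested.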

How the data were processed

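Per the submitters' processing notes, the authors computed the deposited intensities with MAS5, which combines the probes of a probe set into 1 signal. The sources used here do not give its version, settings or detection calls. Equal 2% trimmed means of 150.0 on both arrays show that the deposited values had been scaled. RNA (500 to 1000 ng) was amplified from a poly(T) primer, per the labels' protocols, which weights 3′ ends. Signals were rescaled to the same trimmed mean (factors of 1.0 after rounding), raised to the floor of 36.4 and compared as log2 ratios of knockout over wild type. A fold with 1 signal below the floor is written "at least". Probe sets were named from the platform's annotation: 10298 of 12654 had 1 gene symbol, 363 had several and 1993 none. The 66 control probe sets were left out. A gene in a list took its brightest probe set. Precision is limited by having 1 array for each genotype, and no p-value was computed. The members and lists were chosen with earlier results of these data known. All member probe sets were named and, of each list, genes 2-fold apart, otherwise the highest and the lowest ratio above the floor on both arrays. Other genes, such as Pgls, Me1, Idh1, Ltb4r1, Prdx3, Gpx4, Prkcd, Irf1, Spi1, Mrc1, Mpeg1, Ighm, Dcn, Col1a2 and markers below the floor, were named after their values were seen. So were Fcgr2b and Flt3. Promoters came from RefSeq (GRCm38.p6). The calculation was run on simulated data without noise, with changes of more than 2-fold put into probe sets well above the floor. That run checks the arithmetic only. It does not cover noise, dim signals or differences as small as those of the members. Python 3.11.15, pandas 2.3.3, numpy 2.4.6, scipy 1.17.1 and statsmodels 0.14.6 were used.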

Additional observations from a re-analysis of the deposited data

How the results depend on the processing

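Alternatives were the deposited values without rescaling, equal medians, quantile normalization, loess, a floor at the 25th or 75th percentile or none (log2 of the signal plus 1), an average of all probe sets of a gene, and only probe sets without a suffix for cross-hybridisation. No oxidase probe set became 2-fold apart under any of the alternatives run on probe sets, and the widest log2 ratio was −0.33 (Ncf4, equal medians). All 49 alternative ratios of the members lay within 0.30 of the reported ones, the median difference between probe sets of a gene. That limit is wider than every reported member ratio (widest 0.29), so a change of sign, as for Rac2, also lies within it. For genes with 2 bright probe sets the median difference was 0.18. Many of the 49 came from settings that hardly move these signals. The members' median ran from −0.05 to 0.07, and 3 or 4 of 6 were above 0. In the lists around the oxidase, 1 gene (Cat) was 2-fold apart. There were 2 with quantile normalization (Cat and Pgd), 5 with a floor at the 25th percentile (Cat, G6pd2, Gclm, Ltb4r1 and Me1), 0 with a floor at the 75th percentile, 2 without a floor (Cat and Ltb4r1) and 0 as the mean over probe sets. Of all genes, 2.32% were 2-fold apart as reported, 2.32% with quantile normalization, 11.5% with the lower floor, 0.41% with the higher one, 7.58% without a floor and 2.21% as the mean over probe sets. No paired analysis was possible because each genotype has 1 array, and for the same reason no replicate could be left out.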
